A study of Mus musculus with 21 samples.

Results

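Hes3, Th, Aldh1a1 and Pax6 are 4 of the 48321 gene symbols counted by RNA-seq in 21 samples of mouse embryoid bodies, which are aggregates of differentiating embryonic stem cells. The 4 genes were chosen by their higher counts in cells carrying a homodimer of the transcription factor TWIST1. Values of the homodimer line for these genes are therefore a description of that choice, with no test, and tests on the 4 genes use comparisons among the other 6 groups. All samples derive from A2loxCre embryonic stem cells (strain C57BL/6 in the labels), a line made for doxycycline-controlled expression of an integrated construct, and were collected on day 3 of differentiation. There were 3 samples in each of 7 groups. The parental A2loxCre line, with no construct, received doxycycline. The line with an integrated Twist1 monomer was measured without doxycycline (the uninduced monomer) and with it (the induced monomer). The lines with an integrated Twist1 homodimer, Twist1-Tcf3 dimer, Twist1-Tcf4 dimer or Twist1-Tcf12 dimer all received doxycycline, and induction lasted 16 h. The homodimer line and the 3 E-protein dimer lines have no uninduced group here, so in them a difference between cell lines and an effect of the construct cannot be told apart. The labels name neither clones nor separate cultures, so p-values measure only the spread between these samples, which may be technical.

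TWIST1 is a basic helix-loop-helix (bHLH) factor that binds E-box sequences in pairs, either 2 TWIST1 molecules or TWIST1 joined to an E-protein such as TCF3, TCF4 or TCF12. Hes3 encodes a bHLH repressor of the Hes family, which acts beside the Notch pathway to keep neural progenitors undifferentiated and is known from the boundary of midbrain and hindbrain. Th encodes tyrosine hydroxylase, the rate-limiting enzyme of catecholamine synthesis and a marker of dopaminergic and noradrenergic neurons. Aldh1a1 encodes a retinaldehyde dehydrogenase that makes retinoic acid and is known from the dorsal retina and from dopaminergic neurons of the ventral midbrain. Pax6 encodes a paired-domain and homeodomain factor needed for the eye, the forebrain, the spinal cord and the endocrine pancreas.

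Total counts per sample ranged from 6648842 to 15999693. Levels are CPM, read counts relative to the sample total, which is adjusted by a normalisation factor, given as mean ± SD over 3 samples. A count of 3 in a sample, taken as the floor, corresponds to 0.182 to 0.488 CPM, so the means of Hes3, Th and Aldh1a1 outside the homodimer line lie close to this floor or below it. Twist1 itself stood at 8.11 CPM in the parental line, 613 in the induced monomer, 182 in the homodimer line, and 55.2, 39.4 and 42.3 in the TCF3, TCF4 and TCF12 dimer lines as labelled. The homodimer line was thus not the line with the most Twist1 counts. Tcf4 was raised in the libraries labelled TCF4 dimer (330 against 47.5 CPM in the parental line). Tcf3 counts were not raised in the libraries labelled TCF3 dimer (154 against 167 CPM). Tcf12 stood at 93.1 CPM in those labelled TCF12 dimer, 104 in those labelled TCF3 dimer and 90.4 in those labelled TCF4 dimer, against 66.1 in the parental line. The counts therefore do not verify the TCF3 and TCF12 labels, and all results for them are given for the libraries as labelled. Sample 1 labelled TCF12 dimer stood apart from samples 2 and 3: without it the common biological coefficient of variation of the fit fell from 0.120 to 0.0539. Summed levels of the 10 pluripotency markers lay between 728 and 1283 CPM in the 21 samples.

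By GENCODE M21 (GRCm38), Hes3 lies on the minus strand at chr4:152285972-152291662, Th on the minus strand at chr7:142892752-142931128, Aldh1a1 on the plus strand at chr19:20492715-20643465 and Pax6 on the plus strand at chr2:105668900-105697364. The 2 annotated genes that are listed in the count tables and overlap them on the opposite strand, Pax6os1 at Pax6 and the pseudogene Gm6684 at Aldh1a1, both had 0 counts in all 21 samples. RefSeq promoter windows (GRCm38.p6, 250 bases before to 50 bases after a transcription start) matched 3 of the 4 genes, with 1 start for Th, 2 for Aldh1a1 and 2 for Pax6. The 250 upstream bases of 3 of these starts are printed because TWIST1 dimers are known to bind E-boxes, and these windows hold from none to several such letters. Capitals mark each E-box motif, CANNTG, a pattern that reads the same on both strands.
Th, chr7:142899996-142900245, minus strand: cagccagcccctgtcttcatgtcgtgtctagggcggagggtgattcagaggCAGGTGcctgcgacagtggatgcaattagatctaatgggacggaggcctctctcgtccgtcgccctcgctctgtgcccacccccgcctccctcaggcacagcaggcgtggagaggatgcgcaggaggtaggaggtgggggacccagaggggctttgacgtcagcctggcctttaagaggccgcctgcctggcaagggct
Aldh1a1, second start, chr19:20601718-20601967, plus strand: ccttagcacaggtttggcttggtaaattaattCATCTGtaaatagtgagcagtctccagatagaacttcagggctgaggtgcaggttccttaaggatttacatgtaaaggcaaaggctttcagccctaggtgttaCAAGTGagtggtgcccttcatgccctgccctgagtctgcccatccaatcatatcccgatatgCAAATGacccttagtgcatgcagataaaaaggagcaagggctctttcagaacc
Pax6, first start, chr2:105668646-105668895, plus strand: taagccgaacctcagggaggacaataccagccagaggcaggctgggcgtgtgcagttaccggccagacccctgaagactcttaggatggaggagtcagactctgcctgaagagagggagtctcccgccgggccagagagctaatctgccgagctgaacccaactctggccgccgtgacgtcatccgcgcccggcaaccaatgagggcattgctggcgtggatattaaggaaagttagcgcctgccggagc
The Th window held 1 match, CAGGTG at position -199 counted from the start. The window of the second Aldh1a1 start held 4 matches, CATCTG at -218, CAAGTG at -115, CAAATG at -53 and, past the printed stretch, CACCTG at 17. The window of the first Aldh1a1 start held CAGGTG at -163 and CATCTG at -61. Pax6 had no match at its first start and 1, CAAATG at -20, at its second. CANNTG occurs in 72.31% of all 32851 windows of this length and CATCTG or its reverse complement CAGATG in 17.15%, so a match is a description and no sign of binding.

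**Figure D1:**
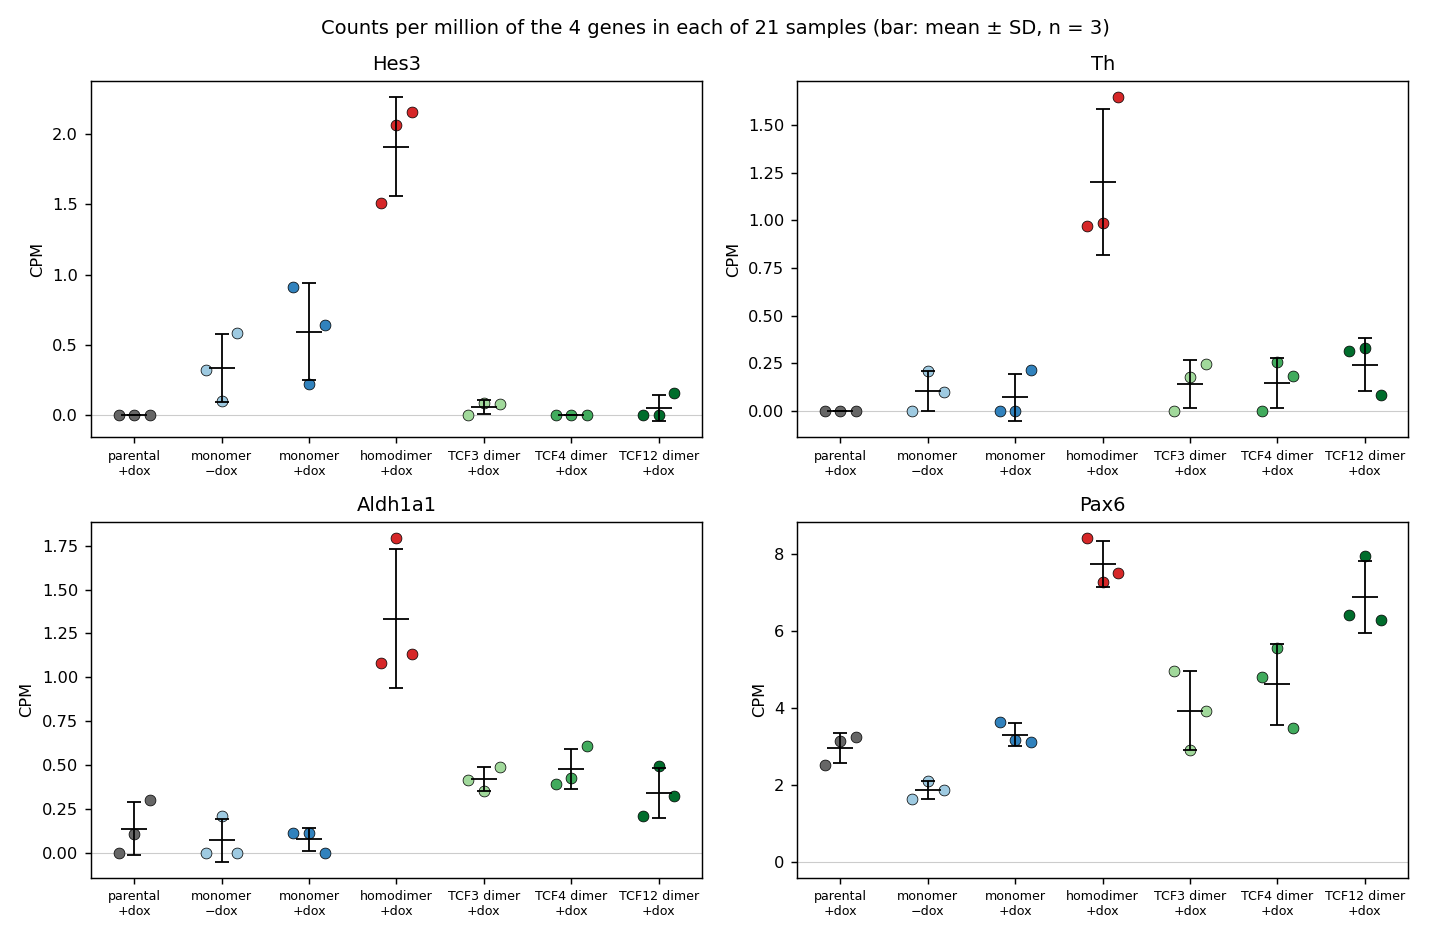
CPM (y axis) of Hes3, Th, Aldh1a1 and Pax6 in each of the 21 samples, by group (x axis; +dox, with doxycycline; −dox, without), with the mean and SD of 3 samples. Hes3, Th and Aldh1a1 are above all other samples in the 3 homodimer samples, at 0.971 to 2.16 CPM, while the Pax6 values of the homodimer line overlap those of the libraries labelled TCF12 dimer.

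Hes3 was at its highest in the homodimer line and was otherwise found mainly in the monomer line, with and without induction. Its counts in samples 1 to 3 were 14, 23 and 21 in the homodimer line. They were 8, 2 and 6 in the induced monomer and 2, 1 and 6 in the uninduced monomer. The parental line had 0 counts in all 3 samples, as had the libraries labelled TCF4 dimer, while those labelled TCF3 dimer had 0, 1 and 1 and those labelled TCF12 dimer 0, 0 and 2. No other sample reached the lowest homodimer sample, and the 2 monomer groups overlapped each other. The means were 1.91 ± 0.351 CPM (SD, n = 3) in the homodimer line, 0.593 ± 0.346 in the induced monomer and 0.339 ± 0.241 in the uninduced monomer.

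Hes3, Th and Aldh1a1 passed the filter on low counts only through the homodimer samples and would not have been tested without them, so their calls between the other groups are also given without that filter. The fits without the filter still included the homodimer samples. Hes3 was higher in the monomer line than in the parental line whether or not doxycycline was given. Against the parental line, with 3 counts set over that group in place of 0, the ratio was 5.60 in the induced monomer. Its adjusted p was 0.00618 by edgeR's quasi-likelihood test with Benjamini-Hochberg adjustment over 14311 genes. For the uninduced monomer the ratio so set was 3.27, with an edgeR adjusted p of 0.0306. Without the filter the edgeR adjusted p values were 0.00122 and 0.0199. The uninduced call was lost without parental sample 1, 2 or 3 (edgeR adjusted p = 0.0730, 0.0751 and 0.0786) and without uninduced sample 1 or 3 (0.0552 and 0.138). Induction itself gave no passing difference for Hes3 within the monomer line, with a pooled count ratio of 1.71 (95% counting interval 0.712 to 4.39).

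Each E-protein dimer had a lower mean of Hes3 than the induced monomer, at 0 to 2 counts per sample against 2 to 8. Hes3 was kept by the filter on low counts only through the homodimer samples, which limits the tests that follow. The libraries labelled TCF4 dimer, with 0 counts, had at most 0.171 times the induced monomer's level by the upper 95% counting limit (edgeR adjusted p = 0.00195). Those labelled TCF3 dimer had 0.0944 times the induced monomer's level (95% counting interval 0.0105 to 0.402; edgeR adjusted p = 0.0170) and those labelled TCF12 dimer 0.0989 times (0.0110 to 0.421; edgeR adjusted p = 0.0134). Without the filter on low counts the 3 edgeR adjusted p values were 0.000171, 0.00902 and 0.0067. Without induced monomer sample 1 the last 2 calls were lost (edgeR adjusted p = 0.0815 and 0.0656), and the TCF3 call was also lost without induced monomer sample 3 (0.0502) or TCF3 dimer sample 1 (0.0752). Endoderm markers moved with the monomer line as well: the summed level of 11 markers was 529 to 663 CPM in its 6 samples, 342 to 391 in the libraries labelled TCF3 dimer and at most 209 in the other 4 groups, and none of the 11 was at 0 in any group. The homodimer line, with the most Hes3, had 116 to 133 CPM of these markers. The part of endoderm cells in the Hes3 values was not tested, and in bulk RNA more cells of a type and more RNA per cell cannot be told apart.

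Th, which turns tyrosine into the catecholamine precursor L-DOPA, was detected above the floor of 3 counts in every homodimer sample. Its counts were 9, 11 and 16 there. In the parental line all 3 samples had 0 counts. The uninduced monomer had 0, 2 and 1 and the induced monomer 0, 0 and 2. In the E-protein dimer lines the counts were 0, 2 and 3 (TCF3), 0, 3 and 3 (TCF4) and 3, 4 and 1 (TCF12). The lowest homodimer sample was above every other sample, and in the other 18 samples 1 count of 4, in TCF12 dimer sample 2, exceeded the floor. The homodimer mean was 1.20 ± 0.385 CPM and the next highest, in the libraries labelled TCF12 dimer, 0.241 ± 0.139.

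None of the 12 comparisons without the homodimer line passed for Th. The smallest adjusted p was that of the libraries labelled TCF12 dimer against the parental line, 0.0612 by edgeR, 0.0528 by edgeR without the filter on low counts and 0.0402 by DESeq2. There the 3 TCF12 dimer samples, with 8 counts in all, lay above the 3 parental samples at 0. The ratio was 2.21 with 3 counts set over the parental group. Between the libraries labelled TCF12 dimer and the induced monomer the pooled ratio was 3.16, with a counting interval from 0.631 to 30.6, so at these counts a difference of several-fold was not detectable.

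Aldh1a1 was highest in the homodimer line, intermediate in the 3 E-protein dimer lines and near 0 in the parental and monomer lines. The homodimer counts were 10, 20 and 11. The libraries labelled TCF3 dimer had 5, 4 and 6 counts, those labelled TCF4 dimer 5, 5 and 10, and those labelled TCF12 dimer 2, 6 and 4. The parental line had 0, 1 and 3, the uninduced monomer 0, 2 and 0, and the induced monomer 1, 1 and 0. In CPM the homodimer samples (1.08 to 1.80) did not overlap any other group, and the samples labelled TCF3 dimer (0.353 to 0.488) and TCF4 dimer (0.393 to 0.608) lay above every parental and monomer sample. Those labelled TCF12 dimer (0.210 to 0.492) overlapped the parental samples, which reached 0.303.

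Aldh1a1 was kept by the filter on low counts only through the homodimer samples, which limits the tests that follow. Against the induced monomer, Aldh1a1 was higher in the libraries labelled TCF4 dimer by 2.54 ± 0.78 on the log2 scale (SE; edgeR adjusted p = 0.0201) and in those labelled TCF3 dimer by 2.33 ± 0.82 (edgeR adjusted p = 0.0488). The value for those labelled TCF12 dimer was 2.08 ± 0.86 with an edgeR adjusted p of 0.0687, which became 0.0411 without TCF12 dimer sample 1. The TCF4 call was lost without induced monomer sample 3 (edgeR adjusted p = 0.0921), without TCF4 dimer sample 3 (0.0781) and with DESeq2 (0.0586), and was 0.0300 without the filter on low counts. The TCF3 call lay at the threshold and was lost in 14 of 21 fits that left out 1 sample, with edgeR adjusted p from 0.0506 to 0.180, with DESeq2 (0.104) and without the filter on low counts (0.0856). Those 14 samples were parental 2, uninduced monomer 1, all 3 induced monomer samples, homodimer 1 and 3, all 3 samples labelled TCF3 dimer, all 3 labelled TCF4 dimer and TCF12 dimer 3. Against the parental line none of the E-protein dimers passed for Aldh1a1, with log2 values of 1.50, 1.71 and 1.25 for TCF3, TCF4 and TCF12 and edgeR adjusted p of 0.127, 0.112 and 0.210. Between pairs of E-protein dimers the log2 differences for Aldh1a1 were -0.46 to 0.25 and none passed.

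**Figure D2:**
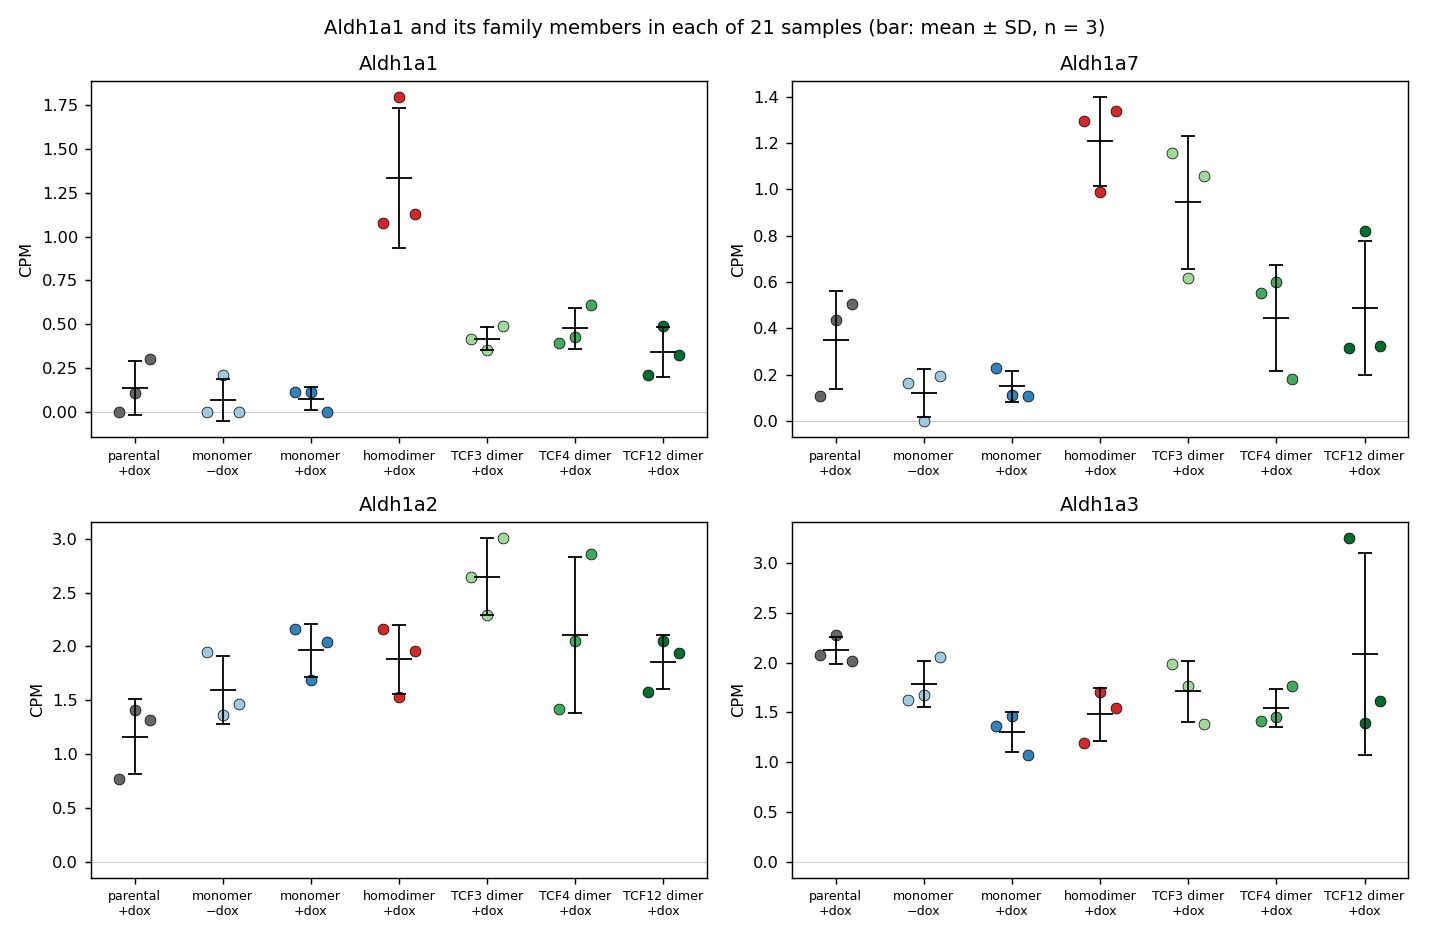
CPM (y axis) of Aldh1a1, its close paralog Aldh1a7 and the other retinaldehyde dehydrogenase genes Aldh1a2 and Aldh1a3 in each of the 21 samples by group (x axis), with the mean and SD of 3 samples. Aldh1a7 is high in the homodimer line, at 0.987 to 1.34 CPM, and in the libraries labelled TCF3 dimer, while Aldh1a2 and Aldh1a3 are detected in every group.

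Aldh1a7, a close paralog that lies 49.5 kb from Aldh1a1, shared part of this pattern. Its counts were 12, 11 and 13 in the homodimer line, 2, 1 and 1 in the induced monomer and 1, 4 and 5 in the parental line. The libraries labelled TCF3 dimer had 14, 7 and 13 counts and overlapped the homodimer samples. Aldh1a7 was higher in the homodimer line than in the induced monomer by 2.92 ± 0.61 on the log2 scale (edgeR adjusted p = 0.00199), and than in the parental line by 1.73 ± 0.50 (edgeR adjusted p = 0.0360). The second call was lost with the replicate number as a block (0.0527), with DESeq2 (0.0551) and without any 1 of the 3 parental or 3 homodimer samples (0.0520 to 0.167). Against the mean of the 3 E-protein dimers Aldh1a7 was at 1.02 ± 0.34 (edgeR adjusted p = 0.0548), under the threshold in 4 of 21 fits leaving out 1 sample. Aldh1a1 and Aldh1a7 are closely similar in sequence, so reads that match both could be miscounted and the level of either is uncertain. Aldh1a2 (1.88 ± 0.323 CPM in the homodimer line) and Aldh1a3 (1.48 ± 0.265) did not pass against the parental line or the induced monomer.

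Few close relatives of the other 3 genes had enough counts to be compared. Of the Hes family, Hes1 had 28.7 ± 2.36 CPM in the homodimer line against 24.4 in the parental line and 26.6 in the induced monomer, and Hes2 0.886 against 0.316 and 0.711. Neither passed in these comparisons, although all 3 homodimer samples lay above the 3 parental samples for Hes2. Hes1 was lower than in the mean of the 3 E-protein dimers by 0.59 on the log2 scale (edgeR adjusted p = 0.0247), the 1 passing relative there. That number was unstable: leaving out 1 sample at a time it was 0 without homodimer sample 1 or 3, 1 without homodimer sample 2 or TCF3 dimer sample 1, and 2 to 4 in the other 17 fits. Hes6 stood at 71.5 CPM in the homodimer line against 42.5 in the parental line and 50.3 in the induced monomer, with edgeR adjusted p of 0.134 and 0.268 that became 3.21e-08 and 8.45e-06 without TCF12 dimer sample 1. The mean of the 3 E-protein dimers for Hes6 was 103 CPM, with 250 in TCF12 dimer sample 1. Against that mean the homodimer line was at -0.48 on the log2 scale (edgeR adjusted p = 0.216). Hes5 had 3, 3 and 4 counts in the homodimer line, its highest mean, 0 in the induced monomer and at most 3 in any other sample, and Hes7 at most 7 in any sample, too few to be tested. Among the aromatic amino acid hydroxylases, the family of TH, Tph1 had at most 3 counts in any sample. Tph2 had 0, 2 and 0 counts in the homodimer line and 13, 8 and 10 in the group labelled TCF3 dimer, and 15, 7 and 6 in that labelled TCF12 dimer. Pax4, the other Pax gene with a paired domain and homeodomain closest to Pax6, had 0 counts in all samples.

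Pax6 was detected in every sample and rose in the libraries labelled TCF12 dimer as well as being high in the homodimer line. Its counts were 78, 81 and 73 for the homodimer and 61, 97 and 78 for the libraries labelled TCF12 dimer, or 8.42, 7.27 and 7.51 against 6.40, 7.96 and 6.30 CPM. These 2 groups overlapped. The libraries labelled TCF4 dimer had 61, 65 and 57 counts and those labelled TCF3 dimer 60, 33 and 48. The parental line had 23, 29 and 32, the induced monomer 32, 28 and 29, and the uninduced monomer 10, 20 and 19. In CPM the uninduced monomer samples lay below all other groups and the homodimer and TCF12 dimer samples above all the rest.

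In the tests without the homodimer line, Pax6 was higher in the libraries labelled TCF12 dimer than in the parental line by 1.22 ± 0.20 on the log2 scale (6.89 ± 0.931 against 2.96 ± 0.395 CPM; edgeR adjusted p = 0.000169). It exceeded the induced monomer by 1.06 ± 0.20 (edgeR adjusted p = 0.000376). Both calls held under every alternative, with edgeR or DESeq2 adjusted p up to 0.0158 and 0.0145. The libraries labelled TCF3 dimer had less Pax6 than those labelled TCF12 dimer, by -0.81 ± 0.18 on the log2 scale (edgeR adjusted p = 0.00543, or 0.185 when only the 2 groups were fitted). For TCF12 against TCF4 the log2 value was 0.60 ± 0.18 with an edgeR adjusted p of 0.0695, which became 0.0338 without TCF12 dimer sample 1 and 0.0189 without sample 3. For TCF4 against the parental line it was 0.62 ± 0.21 with an edgeR adjusted p of 0.0559, under the threshold without TCF3 dimer sample 1 or 2 (0.0448 and 0.0392), TCF4 dimer sample 3 (0.0147) or TCF12 dimer sample 1 (0.0271). Against the induced monomer the TCF4 value was 0.46 ± 0.20 (edgeR adjusted p = 0.104, or 0.0270 without TCF4 dimer sample 3).

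Within the monomer line Pax6 stood higher with doxycycline than without, in all 3 samples against all 3. The log2 difference was 0.81 ± 0.25 with a 95% interval from 0.29 to 1.33 and an edgeR adjusted p of 0.134 (unadjusted 0.00438, and adjusted 0.0497 when only the 2 groups were fitted). The uninduced monomer lay below the parental line by -0.65 ± 0.25 on the log2 scale (edgeR adjusted p = 0.0767, and 0.0354 when only the 2 groups were fitted). The induced monomer and the parental line differed by 0.15 ± 0.23 with an edgeR adjusted p of 0.726.

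Counted over the 4 genes, few of the comparisons without the homodimer line passed. In the uninduced monomer against the parental line 1 of 4 passed, where 19.9% of all 14311 tested genes did, and in the induced monomer against the parental line 1 of 4, where 20% did. Induction within the monomer line called 0 of 4 and 2% of all genes. Against the parental line 0 of 4 passed in the libraries labelled TCF3 dimer (28.3% of all genes), 0 of 4 in those labelled TCF4 dimer (12.9%) and 1 of 4 in those labelled TCF12 dimer (27%). Against the induced monomer 2 of 4 passed in each, with 22.1% of all genes for TCF3, 27.4% for TCF4 and 33.5% for TCF12. Between the E-protein dimers 0 of 4 passed for TCF3 against TCF4 (19.7%) and TCF12 against TCF4 (3.24%), and 1 of 4 for TCF3 against TCF12 (18.8%). In the 5 comparisons in which edgeR called 0 of 4, DESeq2 also called 0, and the numbers at an unadjusted edgeR p under 0.05 were 1 for induction, 1 and 3 for TCF3 and TCF4 against the parental line, 0 for TCF3 against TCF4 and 1 for TCF12 against TCF4. With 4 genes, of which 3 are near the floor, these counts set no share apart from the background. All 4 genes passed the filter on low counts, of which Pax6 alone would have passed without the homodimer samples.

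**Figure D3:**
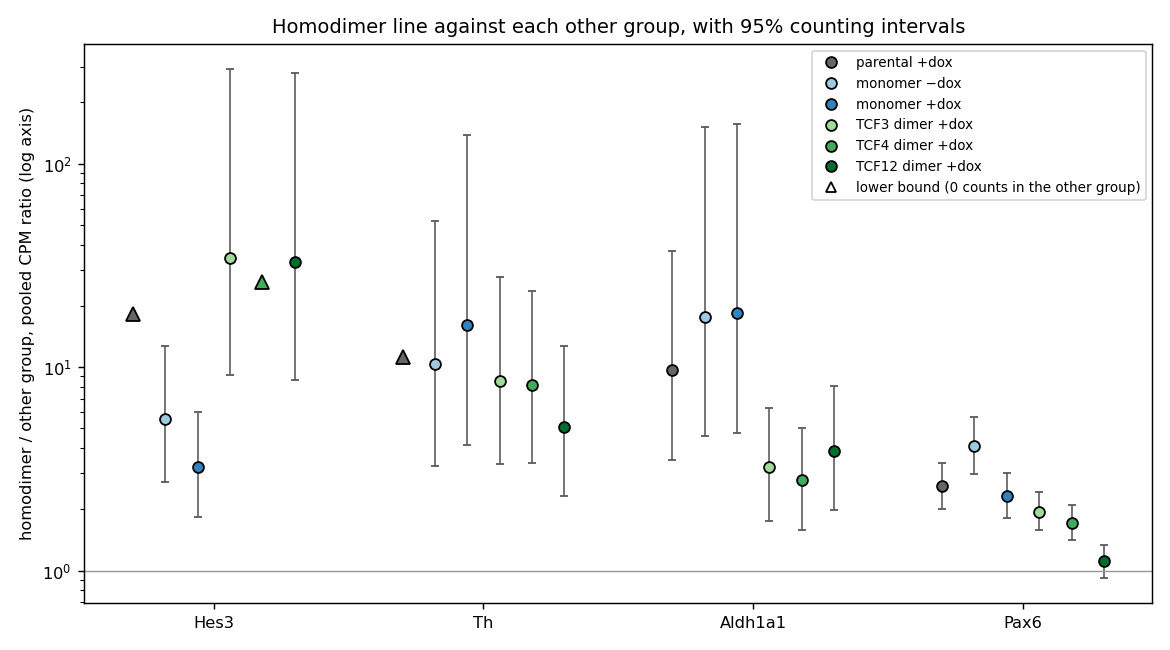
Ratio of pooled, scaled counts in the homodimer line to those in each other group (y axis, log scale) for the 4 genes (x axis). Bars are 95% counting intervals, which leave out the spread between samples, and triangles are lower bounds where the other group had 0 counts. The genes were chosen as higher in the homodimer line, so the ratios and intervals describe that choice and are no test. The lowest ratio was that of Pax6 to the libraries labelled TCF12 dimer, 1.11 (0.925 to 1.34).

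As a description of the choice, the homodimer line exceeded the parental line for Hes3 and Th with lower 95% counting limits of 14.3-fold and 8.71-fold. The ratio was 9.63 for Aldh1a1 (95% counting interval 3.49 to 37.0) and 2.60 for Pax6 (2.01 to 3.37). These intervals cover counting error only, since PCR duplicates, not marked by molecular identifiers, are not separate molecules. The group nearest to the homodimer line differed between the genes. For Hes3 it was the induced monomer, with a ratio of 3.25 (1.84 to 6.05). For Th it was the group labelled TCF12 dimer, at 5.09 (2.33 to 12.7), for Aldh1a1 the group labelled TCF4 dimer, at 2.78 (1.59 to 5.01), and for Pax6 the group labelled TCF12 dimer, at 1.11 (0.925 to 1.34). Per kilobase of annotated exon, the levels in the homodimer line were 0.976 CPM per kb for Hes3, 0.661 for Pax6, 0.508 for Th and 0.270 for Aldh1a1. On the same scale Pax6 led in the parental line, at 0.253 CPM per kb, where Aldh1a1 had 0.0278 and the other 2 genes had no counts. The exon length joins all annotated transcripts, 11694 bases over 26 for Pax6 and 1960 over 2 for Hes3. The order of the genes on this scale therefore depends on the annotation.

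The likeness between the 4 genes depended on the homodimer samples to different degrees. Across 21 samples, Pearson's r of log2(CPM + 0.5) was 0.71 for Hes3 with Th, 0.47 for Hes3 with Aldh1a1 and 0.29 for Hes3 with Pax6. Over the 18 samples without the homodimer line these became -0.16, -0.61 and -0.41. For Aldh1a1 with Pax6 the values were 0.76 and 0.64, for Th with Aldh1a1 0.79 and 0.39, and for Th with Pax6 0.64 and 0.39. These are descriptions over points that share groups and libraries. The 4 genes were chosen for higher counts in the homodimer line, so their likeness there follows from the choice. By the means of the remaining groups Hes3 was highest in the monomer line, and Aldh1a1 and Pax6 in the E-protein dimers. For Pax6 the samples labelled TCF3 dimer (2.91 to 4.96 CPM) overlapped the parental and induced monomer samples. Only the libraries labelled TCF12 dimer passed against either of these groups for Pax6. For Aldh1a1 no E-protein dimer passed against the parental line. Outside the homodimer line Hes3, Th and Aldh1a1 were close to the floor or below it.

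**Figure D4:**
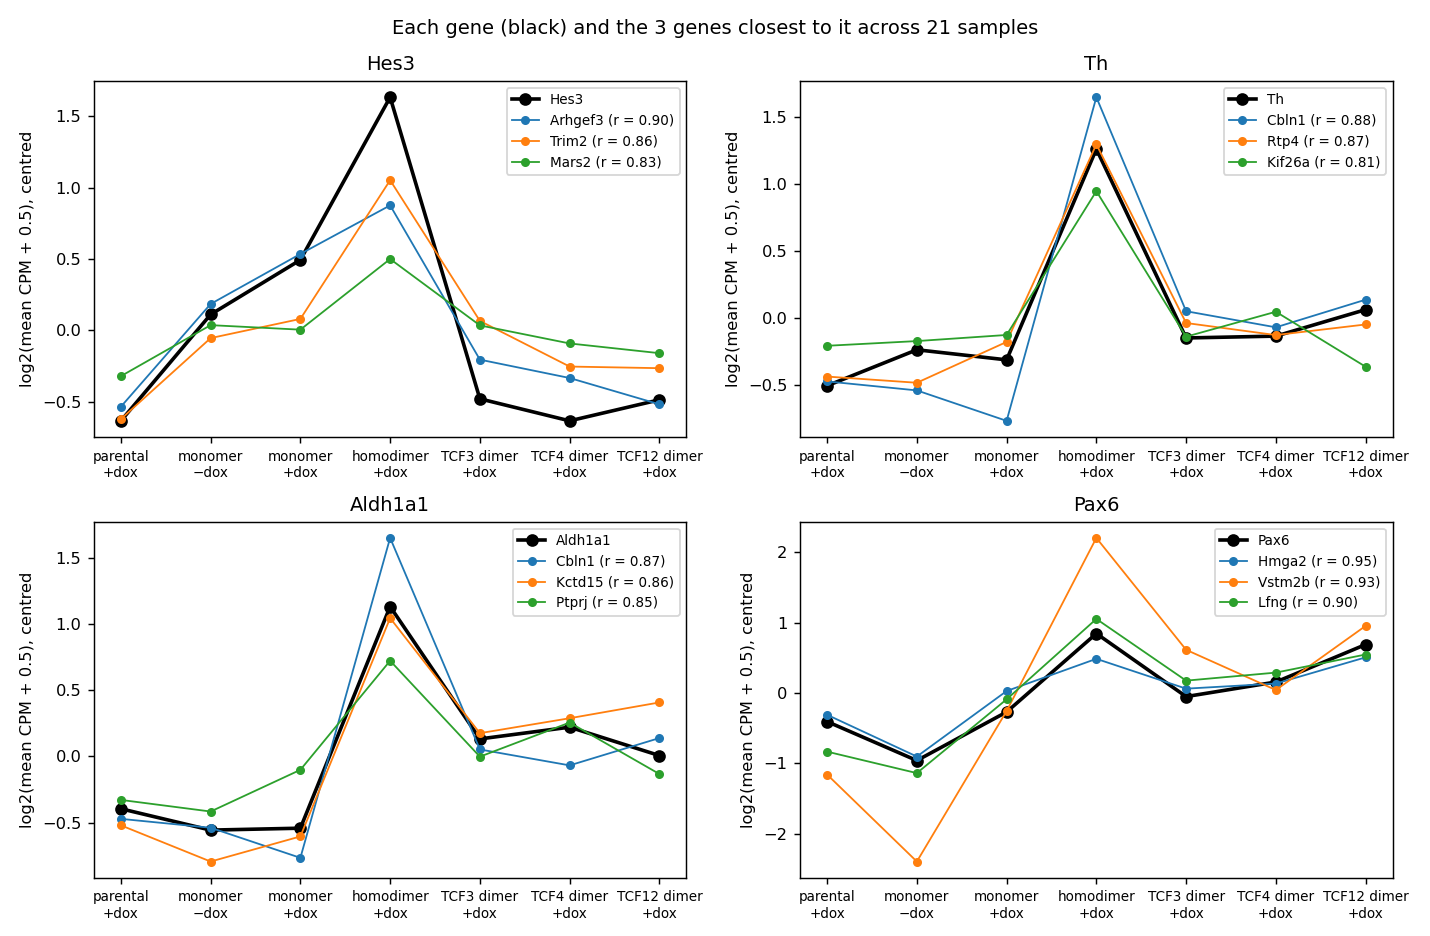
Log2(mean CPM + 0.5), centred on the mean of the 7 groups (y axis), by group (x axis) for each of the 4 genes (black) and the 3 genes with the highest Pearson r to it over 21 samples. Lines only join the points of 1 gene; each of the 4 genes peaks in the homodimer line, and Hmga2 follows Pax6 with r = 0.95.

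The genes whose pattern was most like that of each gene were named by the highest r over 21 samples among tested genes with at least 1 CPM in a group. For Hes3 these were Arhgef3, a guanine nucleotide exchange factor gene (r = 0.90), the ubiquitin ligase gene Trim2 (0.86) and Mars2, a mitochondrial methionyl-tRNA synthetase gene (0.83). Arhgef3 stood at 27.2 ± 0.763 CPM in the parental line, 45.2 ± 0.422 in the uninduced monomer, 57.8 ± 4.12 in the induced monomer and 73.3 ± 2.35 in the homodimer line, far above the floor. Its order over these 4 groups was that of Hes3, but Arhgef3 was picked for likeness to Hes3 among 14099 genes, so the shared order is no separate result. Cbln1, which encodes a secreted synaptic organiser of the cerebellum, came first for both Th (0.88) and Aldh1a1 (0.87), at 8.30 ± 1.08 CPM in the homodimer line and 1.15 to 2.59 CPM in the means of the other groups. Th was further followed by Rtp4 (0.87) and the kinesin gene Kif26a (0.81), and Aldh1a1 by Kctd15 (0.86) and the receptor phosphatase gene Ptprj (0.85). Pax6 was followed by Hmga2, a chromatin protein gene (0.95), Vstm2b (0.93) and Lfng, a glycosyltransferase that modifies Notch receptors (0.90). Hmga2 stood at 75.8 ± 5.52 CPM for the homodimer, at 76.9 ± 4.62 for the libraries labelled TCF12 dimer and at 28.6 ± 1.56 in the uninduced monomer. With Spearman's rank correlation in place of Pearson's r, or with the 7 group means in place of the samples, 3 of the 12 names were kept.

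**Figure D5:**
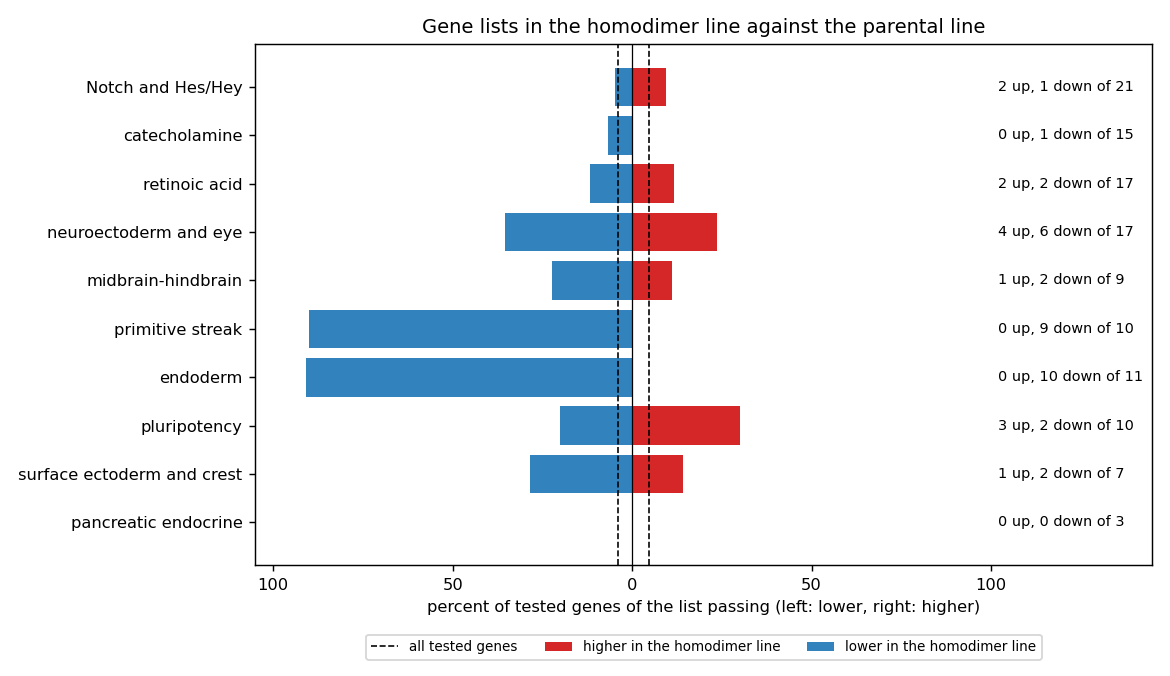
Percent of the tested genes of each list (y axis) that passed as higher (to the right, red) or lower (to the left, blue) in the homodimer line against the parental line (x axis; edgeR adjusted p under 0.05), with the counts at the right. Dashed lines mark the shares over all 14311 tested genes, 4.81% higher and 4.02% lower; the endoderm and primitive streak lists have 0 genes higher and 10 of 11 and 9 of 10 lower.

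Pathway lists around the 4 genes were read against the shares of all 14311 tested genes. Between the homodimer and parental lines 4.81% of genes were higher and 4.02% lower, against the induced monomer 9.15% and 9.31%, and against the mean of the 3 E-protein dimers 6.04% and 7.99%. The median log2 difference of all genes was between -0.01 and 0.00 in these 3 comparisons. These shares move with sample 1 labelled TCF12 dimer: without it 2948 rather than 1265 genes passed against the parental line and 4803 rather than 2642 against the induced monomer.

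Of 21 tested genes of the Notch and Hes/Hey list, which surrounds Hes3, 2 were higher and 1 lower in the homodimer line than in the parental line (median log2 -0.03). Dll1, a Notch ligand, rose by 2.01 ± 0.16 on the log2 scale (15.1 against 3.74 CPM; edgeR adjusted p = 5.9e-08) and Lfng by 1.99 ± 0.16 (17.8 against 4.44 CPM; edgeR adjusted p = 5.11e-08). Jag1, another ligand, fell by 0.63 ± 0.14 (edgeR adjusted p = 0.00448). Compared with the induced monomer, Lfng (1.19) and the target gene Hey1 (1.09) were higher, and Heyl (-2.04) and Rbpj (-0.35), the latter the DNA-binding partner of Notch, were lower. Dll1, at 12.8 CPM in the induced monomer, did not pass there (0.24, edgeR adjusted p = 0.283). It exceeded the mean of the E-protein dimers, 7.89 CPM, by 0.94 (edgeR adjusted p = 8.14e-06). The Heyl call was lost in 15 of 21 fits leaving out 1 sample and with the replicate block (edgeR adjusted p = 0.0592), and the Rbpj call without induced monomer sample 1 or 3 or any homodimer sample. The numbers passing, 3 against the parental line and 4 against the induced monomer, became 9 and 11 without TCF12 dimer sample 1. Against the parental line 5 passed without TCF12 dimer sample 3, and against the induced monomer 2 without induced monomer sample 3 or homodimer sample 1 or 3. Against the E-protein dimers 3 of 21 were higher and 5 lower.

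Of 15 tested genes of the catecholamine list, 1 differed from the parental line. Maoa, which breaks catecholamines down, was lower by -0.34 ± 0.07 on the log2 scale (edgeR adjusted p = 0.00531; 0.0609 without the filter on low counts) and 0 were higher. Without parental sample 3 or TCF12 dimer sample 1 or 3, with DESeq2, and with only the compared groups fitted, 2 passed, of which 1 was higher, and 1 was also higher without the filter. Compared with the induced monomer, Lmx1b, a factor of dopaminergic progenitors (-1.18), and Pcbd1, which recycles the cofactor of TH (-0.91), were lower. The Lmx1b call was lost without induced monomer sample 2 (edgeR adjusted p = 0.0680) or homodimer sample 1 (0.0675) or 2 (0.123), with DESeq2 (0.0538) and without the filter on low counts (0.0512). Against the E-protein dimers 1 of 15 was lower and 0 higher. Ddc, the enzyme that follows TH, was looked at after its values were seen: it had 3.27 CPM in the homodimer line, 1.64 in the parental line (edgeR adjusted p = 0.0690), 3.62 in the induced monomer and 4.14 in the E-protein dimers. Dbh, which turns dopamine into noradrenaline, and chosen likewise, had no counts in the homodimer line.

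In the retinoic acid list, 17 genes were tested and both enzymes of retinoid metabolism and carriers changed. Against the parental line Dhrs3, a retinaldehyde reductase (1.45 ± 0.21; edgeR adjusted p = 9.33e-05), and the receptor gene Rara (0.56) were higher. Cyp26a1, which degrades retinoic acid (-1.34 ± 0.21; edgeR adjusted p = 0.000177), and the binding protein gene Crabp2 (-0.79) were lower, the Crabp2 call being lost without parental sample 1 or 3 or homodimer sample 1 (edgeR adjusted p from 0.0512 to 0.0747). Relative to the induced monomer 6 were higher and 3 lower. Among those with the largest differences were Cyp26a1 (-2.21), Rdh10, which makes retinaldehyde (-1.37) and the retinol uptake gene Stra6 (1.13). The Stra6 call was lost without induced monomer sample 1 or 3 or homodimer sample 1 or 2. In the comparison with the E-protein dimers 3 of 17 were higher and 4 lower.

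The neuroectoderm and eye list, which surrounds Pax6, changed in both directions. Of 17 tested genes 4 were higher and 6 lower than in the parental line, with a median log2 of -0.29. Otx1, a homeobox gene of the developing brain, rose by 2.82 ± 0.24 on the log2 scale (12.6 against 1.78 CPM; edgeR adjusted p = 1.65e-07) and Tubb3, a neuronal tubulin, by 1.17 ± 0.13. Fabp7 fell by 1.17 and Meis2 by 0.96 on the log2 scale, the first call being lost without parental sample 1 and the second without parental sample 1, 2 or 3 or homodimer sample 2 or 3. The number passing, 10, was 4 without parental sample 1 and 6 without parental sample 3 or homodimer sample 2. Against the induced monomer 5 were higher and 3 lower, led by Otx1 (3.22), Emx2 (-1.77), Hesx1 (-1.76) and Zic1 (1.24), and 5 passed in all without homodimer sample 1. The Emx2 call was lost in 17 of 21 fits leaving out 1 sample and with the replicate block (edgeR adjusted p = 0.0689), and the Zic1 call without induced monomer sample 2 or 3 or homodimer sample 1. The comparison with the E-protein dimers called 4 of 17 higher and 7 lower. The eye field genes Six3, Rax and Six6 of this list, looked at after their values were seen, were too low to be tested. Six3 had 0.954 CPM in the homodimer line, 0.212 in the parental line, 0.335 in the induced monomer and 0.345 in the E-protein dimers. Six6 had 0.292, 0.391, 0.409 and 0.291 CPM in the same order, and Rax 0.0686, 0.0700, 0.0379 and 0.0901. Rax and Six6 had at most 5 counts in a homodimer sample.

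In the midbrain-hindbrain list, which surrounds Hes3, Pax3 was higher than in the parental line by 2.03 ± 0.53 on the log2 scale (edgeR adjusted p = 0.0184). Fgf8, a signal of the midbrain-hindbrain boundary that is also on the primitive streak list, was lower by 3.82 ± 0.17 (1.79 against 25.4 CPM, edgeR adjusted p = 2.84e-11) and Cnpy1 by 0.63. The summed level of the 14 genes of the list was 54.5 to 61.9 CPM in the parental line and 26.0 to 30.5 in the homodimer line. It was also below the parental line in every other group, at 25.4 to 37.1 CPM. The Pax3 call was lost without parental sample 1 or 2 or homodimer sample 1 or 3 (edgeR adjusted p from 0.0613 to 0.0996), and the Cnpy1 call without parental sample 1, 2 or 3 or homodimer sample 1 or 2. The number passing of 9 tested, 3, was 1 without parental sample 1 or 2 and 5 without TCF4 dimer sample 1 or 3 or TCF12 dimer sample 1. Relative to the induced monomer Sp8 was higher (2.39 ± 0.17; edgeR adjusted p = 5.51e-09) and Gbx2 (-2.16) and Cnpy1 (-0.81) lower. Compared with the E-protein dimers 1 of 9 was higher and 1 lower.

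Markers of other cell types moved between the homodimer and parental lines as well. Of 10 tested primitive streak markers 9 were lower and 0 higher, led by Gsc (-4.47), Fgf8 (-3.82), Evx1 (-3.07) and Mixl1 (-3.02), and the summed level of the 14 was 63.8 to 73.6 CPM in the homodimer line against 309 to 355 in the parental line. That sum was also below the parental line in the uninduced monomer (90.6 to 93.9 CPM) and the induced monomer (64.3 to 72.9). In the libraries labelled TCF3, TCF4 and TCF12 dimer it was 35.5 to 46.2, 47.3 to 55.4 and 38.8 to 45.9 CPM. Of 11 endoderm markers 10 were lower and 0 higher, led by Foxa2 (-2.65), Cer1 (-1.88), Foxa1 (-1.63) and Sox17 (-1.39), with the Foxa1 call lost without parental sample 2 (edgeR adjusted p = 0.0574). Of 10 pluripotency markers Nanog (-1.57) and Tbx3 (-0.97) were among 2 lower, and Fgf4 (0.66) and Esrrb (0.64) among 3 higher. The Esrrb call was lost without parental sample 1 or 3 or homodimer sample 2 or 3. Of 7 tested markers of surface ectoderm and neural crest, Sox9 was higher (2.74) and Msx2 (-2.14) and Msx1 (3.63 against 7.28 CPM) lower, the Msx1 call being lost without parental sample 3 or homodimer sample 3. Of 3 tested pancreatic endocrine markers 0 passed by edgeR (1 at an unadjusted p under 0.05, Neurod1, and 0 by DESeq2), and 4 of the 10 on this list, Pax4, Ins1, Ins2 and Gcg, had 0 counts in the homodimer line. The part of these cell types in the levels of the 4 genes was not tested.

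The nearest protein-coding genes on each side of the 4 genes were examined for changes along the chromosome. Both neighbours of Hes3 at lower coordinates were higher in the homodimer line than in the parental line, Gpr153, 0.6 kb away, by 0.81 ± 0.16 on the log2 scale (edgeR adjusted p = 0.00268) and Acot7, 14.1 kb away, by 0.57 ± 0.15 (edgeR adjusted p = 0.0188). The Acot7 call was lost without parental sample 2 or 3 or homodimer sample 1 or 2 (edgeR adjusted p from 0.0514 to 0.0868). Gpr153 also exceeded the induced monomer (0.71; edgeR adjusted p = 0.00425), as did Acot7 (0.48; edgeR adjusted p = 0.0280, lost without any induced monomer sample or homodimer sample 1 or 2). On the other side Icmt (0.31; edgeR adjusted p = 0.0521, and 0.0473 with the replicate block) and Rnf207 (0.69; edgeR adjusted p = 0.0506) did not pass against the parental line. Icmt was under the threshold without uninduced monomer sample 2 or TCF12 dimer sample 1 or 3, and Rnf207 without homodimer sample 1 or TCF12 dimer sample 1 or 3. Against the E-protein dimers Gpr153 was lower (-0.45; edgeR adjusted p = 0.0196, lost without homodimer sample 2 or 3) and Acot7 higher (0.45; edgeR adjusted p = 0.0128, lost without homodimer sample 1). Rnf207 was higher there by 0.50 (edgeR adjusted p = 0.0484), a call lost in 13 of 21 fits leaving out 1 sample, with DESeq2 (0.111) and with the replicate block (0.0544).

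Near Th, Igf2 (-0.05) and Ascl2 (0.40) did not pass against the parental line, and Ins2 and Tspan32 had no counts in the homodimer line. Against the E-protein dimers Ascl2 was higher by 0.85 ± 0.19 (edgeR adjusted p = 0.00429) and Igf2 lower by -0.49 ± 0.10 (edgeR adjusted p = 0.00197). Near Aldh1a1, beside Aldh1a7, Anxa1 differed from the parental line by 0.31 ± 0.30 (edgeR adjusted p = 0.701) and was lower than in the induced monomer by -1.31 ± 0.25 (edgeR adjusted p = 0.000985), and Rorb and Tmc1 had at most 2 counts in a homodimer sample. Near Pax6, Elp4 (-0.06), Immp1l (0.11) and Rcn1 (-0.15) did not pass against the parental line, and Them7 had 0.240 CPM in the homodimer line. Rcn1 was lower than in the E-protein dimers (-0.41; edgeR adjusted p = 0.000576).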

How the data were processed

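Gene counts of 21 RNA-seq samples were deposited by the authors as 1 table per sample. Per the submitters' processing notes, FastQC, TopHat2 and HTSeq were used with the mouse build mm10 (GRCm38); versions, annotation and strand setting are not given in the sources used here, so reads of overlapping genes cannot be assigned by strand. Whole-number counts summed to 6648842 to 15999693 per sample. Date conversion had altered 25 symbols in 18 of the samples, which were joined by row position.

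All 21 samples were fitted with edgeR 4.0.16 (limma 3.58.1, R 4.3.3), with 1 mean per group, TMM factors and filterByExpr (minimum count 10, minimum total 15), which left 14311 genes. Quasi-likelihood tests were adjusted by Benjamini-Hochberg over these genes at a threshold of 0.05. The procedure was tested on simulated counts. The 4 genes and all lists were chosen with earlier results of these data known, and the 4 genes were not tested in comparisons with the homodimer line. CPM used the scaled library sizes. Count ratios have exact 95% intervals, and some ratios against 0 counts set 3 counts over the group, which is not a confidence limit.

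Genes were named by a fixed rule: the 4 genes, the 3 tested genes closest to each by Pearson's r of log2(CPM + 0.5), up to 4 passing genes of largest log2 fold change per list and comparison with the parental line or induced monomer, all close relatives, the 2 nearest protein-coding genes on each side, and Twist1 and its partners. The named exceptions are Ddc, Dbh, Six3, Rax, Six6 and the pancreatic genes at 0. Some genes that this rule names are not reported here. Loci came from GENCODE M21 and promoters from RefSeq GRCm38.p6. The alternatives were DESeq2 1.42.0, other normalisations and filters, fits restricted to the compared groups, a block by replicate number, leaving out each sample, and other measures of likeness.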

Additional observations from a re-analysis of the deposited data

Results flagged for a closer look

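Pax6 differed between the libraries labelled for 2 E-protein partners in a direct test of that difference. Pax6 in the libraries labelled TCF3 dimer lay at -0.81 on the log2 scale against those labelled TCF12 dimer (edgeR adjusted p = 0.00543, or 0.185 when only these groups were fitted), with 2.91 to 4.96 CPM in the 3 samples of the first and 6.30 to 7.96 in the 3 of the second. The libraries so labelled are not set apart by their Tcf3 and Tcf12 counts, and with no uninduced group a difference between the cell lines and an effect of the constructs cannot be told apart.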

How the results depend on the processing

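Of 61 main results, 32 kept their direction and their side of the threshold under every alternative that gave a value; 224 values could not be computed because the gene left the filter, and 3 because DESeq2 gave no adjusted p.
With DESeq2 in place of edgeR, Aldh1a1 against the induced monomer was 2.496 for TCF3 and 2.70 for TCF4 and lost both calls, Th in TCF12 against the parental line (3.59) gained one, and the fitted homodimer values against the parental line were 6.61 for Hes3 and 5.94 for Th (log2, dependent on the prior count). Without the low-count filter the TCF3 value of Aldh1a1 was 2.34, with no call. With only the groups compared, Pax6 lost the call of TCF3 against TCF12 (-0.81) and gained TCF4 against parental (0.60), induced against uninduced monomer (0.81) and uninduced monomer against parental (-0.66). With library size only, Hes3 in TCF3 against TCF12 turned to 0.013 and Immp1l against the induced monomer to 0.026.

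Numbers of list genes passing were, for Notch and Hes/Hey, 9 with only the groups compared and 5 without the filter (parental), and 10 with only the groups compared (induced monomer). For the catecholamine list they were 2 with DESeq2 and with only the groups compared (parental), and 1 with DESeq2, 1 without the filter and 4 with only the groups compared (induced monomer). All genes passing numbered 3113, 4813 and 1310 with only the groups compared, against parental, induced monomer and E-protein dimers, in place of 1265, 2642 and 2007. Without TCF12 dimer sample 1 they numbered 2948, 4803 and 4173, and without homodimer sample 2 1305 passed against the E-protein dimers.

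Leaving out 1 sample at a time, log2 values against the induced monomer ranged for Aldh1a1 from 1.54 to 2.45 (TCF12), 1.79 to 2.69 (TCF3) and 2.01 to 2.91 (TCF4), for Hes3 from -5.66 to -2.57 (TCF12) and -3.54 to -2.63 (TCF3), and for Pax6 from 0.31 to 0.65 (TCF4). Hes3 in the uninduced monomer against parental ranged from 4.11 to 5.40, Aldh1a1 in the homodimer line against parental from 2.63 to 4.37, and Pax6 from 0.41 to 0.75 for TCF12 against TCF4 and 0.45 to 0.80 for TCF4 against parental. Values that changed sign, none of them past the threshold, were Aldh1a1 in TCF3 against TCF4 (-0.31 to 0.0330), induced monomer against parental (-1.36 to 0.37), induced against uninduced monomer (-0.69 to 2.86) and uninduced monomer against parental (-3.70 to 0.42). Hes3 in TCF3 against TCF12 (-0.57 to 2.52) and Th in induced against uninduced monomer (-3.43 to 0.24) did so too, as did Ascl2 (-0.21 to 0.0209), Immp1l (-0.0700 to 0.0534), Hes2 (-0.0581 to 0.65) and Aldh1a2 (-0.17 to 0.0774) in the homodimer line against the induced monomer and Igf2 against parental (-0.15 to 0.0885). List counts ranged against the induced monomer from 1 to 3 (catecholamine), 5 to 10 (neuroectoderm and eye) and 2 to 11 (Notch and Hes/Hey), and against parental from 1 to 2 (catecholamine), 1 to 5 (midbrain-hindbrain), 4 to 13 (neuroectoderm and eye) and 3 to 9 (Notch and Hes/Hey). Apart from what the left-out samples themselves show, the cause was not tested.

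Samples share only a replicate number: over 63 same-numbered pairs the mean correlation of deviations was 0.0214 (lowest -0.221), and over 126 other pairs -0.0102. The replicate block changed 0 of 61 main results, and among single named genes it moved Aldh1a7, Heyl, Emx2, Icmt and Rnf207 across the threshold, as given in the report. With 0 to 23 counts per sample for Hes3, Th and Aldh1a1, depth limits all their comparisons.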
